A study of Homo sapiens with 3 samples.

Results

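The EGFR family genes examined here were 3 receptor genes, EGFR, ERBB2 and ERBB3, and 6 ligand genes, HBEGF, AREG, EREG, TGFA, BTC and EGF. They were chosen by name, with earlier results of these data known, and all 9 were found among the 29689 genes of the expression table. The table held 3 RNA-seq libraries, 1 each from SUM-149 xenograft tumors given vehicle, the CDK2 inhibitor dinaciclib (CDK2i) or, by the sample labels, the EZH2 inhibitor EPZ6438 (EZH2i). The labels give 10 days for each inhibitor and no duration for vehicle. The study lists CDK1, CDK5 and CDK9 besides CDK2 among the kinases that dinaciclib inhibits, so CDK2i is used here as a label. SUM-149 is a breast cancer cell line. In every group, cells in Matrigel had been placed in the mammary fat pads of female Nu/Nu mice, which lack mature T cells but keep their own stroma and vessels. For SUM-149 xenografts a figure legend of the study names another EZH2 inhibitor, GSK343, so the agent is given here as the labels have it. Each group was 1 library from 1 cell line, with no replicates, and the sources used here do not say whether a library held 1 tumor or several. No p-value, SE or replicate error could therefore be given, and each difference compares libraries, not conditions.

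Ligands of this family are made as membrane-anchored precursors, and metalloproteases of the ADAM family cut them free. A ligand-bound receptor pairs with itself or with another family member, and the paired kinases start the RAS-ERK and PI3K-AKT cascades. ERBB2 has no known ligand of its own and acts as a partner. ERBB3 has a weak kinase and signals mainly through PI3K. In basal-like breast cancer cells EGFR is commonly expressed, and autocrine ligand loops are well described.

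Values were FPKM, fragment counts scaled to transcript length and library depth, a level per length that can be compared between genes. Differences are given on the log2 scale, where a difference of 1 is a fold of 2. A difference was counted when the fold exceeded 2 and the higher value of the pair exceeded log2 FPKM 3, which is 8 FPKM. A gene can thus reach the minimum through its higher library alone, in the shares over all genes as well. Depth, recovered from the steps between low values, was about 16800000 fragments in vehicle, 19100000 in CDK2i and 17500000 in EZH2i. The 95% intervals below cover counting error only. The spread given beside a difference is the SD of the EZH2i minus CDK2i differences over the 200 genes nearest in level. It is a scale of variation between libraries that includes real differences between the inhibitors.

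Of the 13 epithelial markers looked for, 12 exceeded 8 FPKM in vehicle, 12 with CDK2i and 13 with EZH2i. Their summed level was 6715 FPKM in vehicle, 13705 with CDK2i and 5640 with EZH2i. Most of the CDK2i sum was KRT5, KRT14 and KRT17, at 4220, 6270 and 1520 FPKM, beside 1870, 2460 and 620 in vehicle. No other epithelial marker passed the thresholds in CDK2i, so the sum does not stand for the epithelial markers as a whole. The 7 macrophage markers in the table summed to between 5.3 and 11.5 FPKM, the 9 fibroblast markers to between 25.0 and 39.2 and the 6 endothelial markers to at most 12.4. The leukocyte marker PTPRC was at 0.0224 FPKM in vehicle and 0.0196 in CDK2i and was listed at 0 in EZH2i, and the fibroblast marker THY1 was listed at 0 in all 3 libraries. Of the epithelial markers, KRT5, KRT14 and KRT17 were higher in CDK2i and KRT19 and CLDN4 were lower in EZH2i, and the part of the epithelial markers in the results below was not tested. Host stroma and vessels were of mouse, whereas these markers are human genes, so their sums do not measure the host cells. No source used here says that mouse reads were removed. In a bulk tumor, fewer cells of a type and less RNA per cell cannot be told apart.

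Promoter sequence is shown for some of the members. These are EGFR, HBEGF and EREG, which passed both thresholds in at least 1 treated library, and AREG, the neighbor of EREG, which did not pass. TGFA passed in both treated libraries, and its window is not printed. Each line gives the 250 bases before the start of the GENCODE canonical transcript, read from GRCh37, 5′ to 3′ on the strand of the gene. Capitals mark 4 searched motifs on both strands. They are the AP-1 site (TGACTCA or TGAGTCA), the CRE (TGACGTCA), the GC box (GGGCGG or CCGCCC) and the TATA box (TATAAA or TTTATA). The windows are EGFR chr7:55086460-55086709 on the plus strand, HBEGF chr5:139726189-139726438 on the minus strand, EREG chr4:75230612-75230861 on the plus strand and AREG chr4:75310603-75310852 on the plus strand.
EGFR: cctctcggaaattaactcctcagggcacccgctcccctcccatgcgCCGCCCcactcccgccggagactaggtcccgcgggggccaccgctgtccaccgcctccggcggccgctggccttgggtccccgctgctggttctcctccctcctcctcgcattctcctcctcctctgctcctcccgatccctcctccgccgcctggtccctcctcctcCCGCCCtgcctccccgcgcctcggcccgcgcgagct
HBEGF: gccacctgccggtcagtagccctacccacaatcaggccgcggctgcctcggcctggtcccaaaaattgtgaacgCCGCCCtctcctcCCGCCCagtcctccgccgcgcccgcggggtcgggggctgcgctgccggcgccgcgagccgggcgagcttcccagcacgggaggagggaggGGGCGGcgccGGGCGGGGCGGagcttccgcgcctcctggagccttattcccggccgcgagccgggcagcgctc
EREG: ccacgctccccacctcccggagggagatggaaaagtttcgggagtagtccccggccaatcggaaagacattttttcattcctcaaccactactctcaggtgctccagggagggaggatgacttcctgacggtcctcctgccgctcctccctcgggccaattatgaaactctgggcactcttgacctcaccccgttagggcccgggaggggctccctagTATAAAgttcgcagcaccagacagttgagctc
AREG: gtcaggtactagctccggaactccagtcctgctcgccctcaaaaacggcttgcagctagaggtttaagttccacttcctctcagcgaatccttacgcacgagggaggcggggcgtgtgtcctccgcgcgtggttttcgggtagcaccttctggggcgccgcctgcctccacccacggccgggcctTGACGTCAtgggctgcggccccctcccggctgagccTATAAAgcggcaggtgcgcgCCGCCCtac
HBEGF held 5 GC boxes, the last 2 of which share 1 base, and EGFR held 2. EREG held no GC box and had a TATA box that began 32 bases before the start. AREG had a TATA box that began 29 bases before the start, a CRE that began 65 bases before it and a GC box. Among 20116 promoter windows of the same length, a GC box occurred in 58.6%, a TATA box in 9.39%, an AP-1 site in 3.05% and a CRE in 2.39%. Of the members, ERBB3 and EGF held an AP-1 site. A match describes these letters and is not evidence of a factor bound there.

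EGFR, the receptor that the ligands EGF, TGFA, AREG, EREG, HBEGF and BTC share, was at 30.6 FPKM in vehicle, level with ERBB2 at the top of the members. It was at 39.7 FPKM in CDK2i and 63.5 FPKM in EZH2i, so both treated libraries were above vehicle. The log2 difference was 1.05 in EZH2i (counting interval 1.00 to 1.10), a fold of 2.07 that lay just past the threshold. With each library centered on its median gene the EGFR difference in EZH2i was 0.84, and with a trend in transcript GC content and length removed it was 0.42, and neither passed. In CDK2i it was 0.38 (0.32 to 0.43) and did not pass either. The spread of genes at this level was 0.64. The EGFR gene occupies chr7:55086710-55279321 on the plus strand of GRCh37.

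ERBB2, the partner without a known ligand, stood at 30.4 FPKM in vehicle, 30.2 with CDK2i and 21.9 with EZH2i. The lowest level was that of the EZH2i library, with a log2 difference of −0.47 (−0.56 to −0.38) against a spread of 0.80. In CDK2i the ERBB2 difference was −0.01 (−0.09 to 0.07), an interval that holds 0, and its sign depended on the scaling (−0.16 to 0.16). ERBB2 lies at chr17:37844167-37886679 on the plus strand. ERBB3, which binds neuregulins, stood at 12.2 FPKM in vehicle, 11.9 with CDK2i and 10.4 with EZH2i. The 3 ERBB3 levels were close, and the differences of −0.04 and −0.22 were smaller than the spread of 0.77 and changed sign with the scaling. The gene lies at chr12:56470583-56497289 on the plus strand.

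The summed level of the 3 receptors was 73.2 FPKM in vehicle, 81.7 with CDK2i and 95.8 with EZH2i. The share of EGFR in this sum was 41.8% in vehicle, 48.6% in CDK2i and 66.2% in EZH2i. That of ERBB2 was 41.5%, 36.9% and 22.9%. EGFR and ERBB2 were thus level in vehicle, where their counting intervals overlapped, and EGFR was above ERBB2 in both treated libraries.

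HBEGF, the heparin-binding ligand of EGFR and ERBB4, showed the largest difference from vehicle of the members in CDK2i, and in EZH2i was close to TGFA and EREG. Its level was 9.66 FPKM in vehicle, 63.0 with CDK2i and 31.8 with EZH2i, from about 382, 2840 and 1314 fragments. Vehicle was the lowest and CDK2i the highest of the 3 libraries. The HBEGF log2 difference was 2.71 in CDK2i (2.55 to 2.86), a fold of 6.53. In EZH2i it was 1.72 (1.55 to 1.89), a fold of 3.29. The spread was 0.78. HBEGF lies at chr5:139712428-139726188 on the minus strand, directly downstream of the promoter shown above with its 5 GC boxes.

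TGFA, a ligand of EGFR, also passed in both treated libraries. Its level was 6.16 FPKM in vehicle, 13.9 with CDK2i and 21.4 with EZH2i. Vehicle was below the expression minimum and both treated libraries were above it. The TGFA log2 difference was 1.17 in CDK2i (1.00 to 1.33) and 1.80 in EZH2i (1.64 to 1.95), with a spread of 0.75. The gene lies at chr2:70674416-70781325 on the minus strand, and its promoter window, whose start lies within the annotated gene and which is not printed, held 3 GC boxes.

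EREG, a ligand of EGFR and ERBB4, was at 19.7 FPKM in vehicle, 27.7 with CDK2i and 60.7 with EZH2i. The EZH2i library was the highest, and CDK2i lay between it and vehicle. The EREG log2 difference in EZH2i was 1.62 (1.54 to 1.71), a fold of 3.08, and it was 0.86 and did not pass once the same trend was removed. In CDK2i it was 0.49 (0.40 to 0.58), below both the threshold and the spread of 0.67. EREG lies at chr4:75230862-75254466 on the plus strand.

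AREG, an EGFR ligand prominent in mammary gland development, differed little. Its level was 13.9 FPKM in vehicle, 16.3 with CDK2i and 17.9 with EZH2i, and the log2 differences of 0.24 and 0.36 were smaller than the spread of 0.69. The table also lists AREGB, a near-identical copy. The canonical transcripts of AREG and AREGB matched at 1233 of 1234 aligned bases, with an unbroken identical run of 994 bases, so reads may be split between them and the separate levels are uncertain. The sum of both was 17.5 FPKM in vehicle, 20.6 with CDK2i and 25.7 with EZH2i, and its log2 differences were 0.23 and 0.55. The share listed under AREGB was 20.8% in vehicle, 20.5% in CDK2i and 30.5% in EZH2i.

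BTC, a ligand of EGFR and ERBB4, stayed below the expression minimum at 2.52 FPKM in vehicle, 2.84 with CDK2i and 2.78 with EZH2i. The counting intervals of both BTC differences, −0.19 to 0.54 in CDK2i and −0.23 to 0.52 in EZH2i, hold 0. EGF itself was close to absent at 0.159 FPKM in vehicle, 0.0535 with CDK2i and 0.257 with EZH2i. These EGF levels rest on about 17, 7 and 29 fragments, and the counting interval of the CDK2i difference ran from −2.98 to −0.12. BTC lies at chr4:75669969-75719733 on the minus strand and EGF at chr4:110834039-110934922 on the plus strand.

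**Figure D1:**
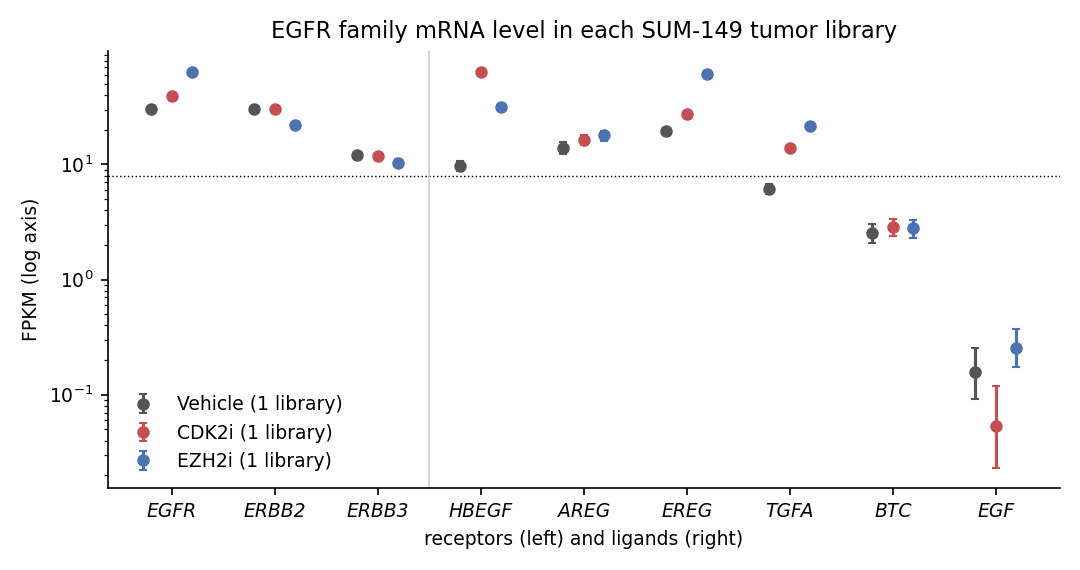
FPKM on a log axis of the 3 receptor and 6 ligand genes in the vehicle, CDK2i and EZH2i libraries, 1 point a library, with 95% counting intervals as bars and the 8 FPKM minimum as a dotted line. HBEGF is highest in CDK2i at 63.0 FPKM, EGFR and EREG are highest in EZH2i at 63.5 and 60.7 FPKM, and BTC and EGF lie below the minimum in all 3 libraries.

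By level in the vehicle library, EGFR and ERBB2 came first, followed by EREG, AREG, ERBB3, HBEGF, TGFA, BTC and EGF. The counting intervals of EGFR and ERBB2 overlapped, as did those of AREG and ERBB3, so these neighbors were not separated. In CDK2i, HBEGF came first, ahead of EGFR, ERBB2, EREG, AREG, TGFA, ERBB3, BTC and EGF, with no overlap between neighbors. In EZH2i the order was EGFR, EREG, HBEGF, ERBB2, TGFA, AREG, ERBB3, BTC and EGF, and the intervals of EGFR and EREG and of ERBB2 and TGFA overlapped. HBEGF thus stood in the sixth place in vehicle, the first in CDK2i and the third in EZH2i. The place of AREG is uncertain, since reads may be split with AREGB, which these orders leave out. In EZH2i the sum of AREG and AREGB, 25.7 FPKM, would lie above ERBB2 at 21.9 and TGFA at 21.4. In vehicle the sum of 17.5 FPKM would lie further above ERBB3 at 12.2.

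The 6 ligands summed to 52.1 FPKM in vehicle, 124 FPKM in CDK2i and 135 FPKM in EZH2i. The treated sums were close to each other but were made up of different ligands. HBEGF held 18.5% of the ligand sum in vehicle, 50.9% in CDK2i and 23.6% in EZH2i. EREG held 37.8%, 22.4% and 45.0%. TGFA held 11.8%, 11.2% and 15.9%, so its share moved less than its level. AREG held 26.6% in vehicle and 13.2% in each treated library, while its own level was slightly higher there. These sums and shares leave out AREGB, so the AREG shares are uncertain. AREGB was 20.5% of the AREG and AREGB sum in CDK2i and 30.5% in EZH2i.

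In CDK2i, 7 of the 9 members reached the expression minimum, and 2 of them, HBEGF and TGFA, were higher than in vehicle past both thresholds. Of all 6632 genes that reached the minimum, 11.3% passed, with 3.27% higher and 8.07% lower. In EZH2i, 7 of the 9 members reached the minimum, and 4 of them, EGFR, HBEGF, EREG and TGFA, were higher. The background there was 13.4% of 7414 genes, with 8.93% higher and 4.42% lower. The 4 members became 3 with each library centered and 2 with the GC and length trend removed. No member was lower past the thresholds in either library. The median log2 difference of the 6 ligands was 0.36 in CDK2i and 1.16 in EZH2i, beside −0.11 and 0.19 over 11109 expressed genes. The EZH2i ligand median was 0.57 with the trend removed. The median of the 3 receptors was −0.01 and −0.22. Both comparisons use the same vehicle library, so a low vehicle value enters both. That library differed from the treated ones in composition. Ribosomal protein genes held 15.55% of its summed FPKM, beside 8.78% in CDK2i and 8.43% in EZH2i. Of 80 such genes at the minimum, 29 were lower in CDK2i, 46 in EZH2i and 0 higher in either. All 13 mitochondrially encoded genes were below vehicle in both treated libraries. The part of this composition in the members' differences was looked at only through the sum taken without these genes, under which HBEGF and TGFA passed in both libraries and EGFR and EREG in EZH2i. The 9 genes were chosen by name with earlier results of these data known, so the choice was not independent of these counts. With 1 library a group, the counts describe the members and were not tested.

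**Figure D2:**
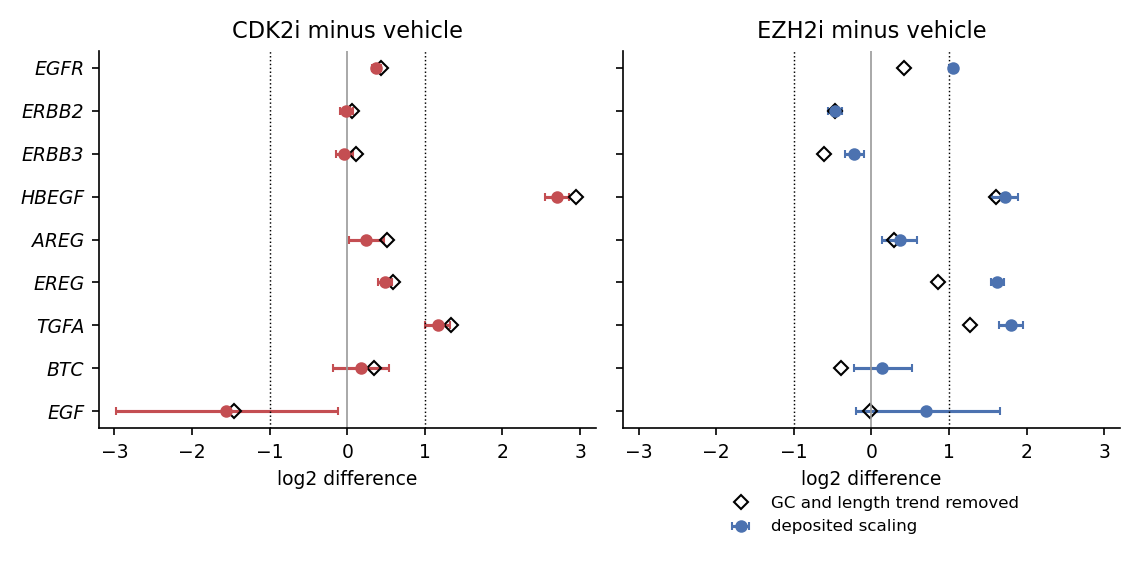
Log2 difference of each member from vehicle in CDK2i (left) and EZH2i (right). Filled points are the deposited values with 95% counting intervals, open diamonds the values after removal of the trend with transcript GC content and length, and dotted lines mark a fold of 2. HBEGF and TGFA lie past the right dotted line in both panels with both markers, and in EZH2i the diamonds of EGFR (0.42) and EREG (0.86) lie inside it.

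The EZH2i differences followed the base composition of the transcripts, and this touches the members unequally. Over 10193 expressed genes with an annotated transcript, the Spearman correlation of the EZH2i difference with GC content was −0.582, and with transcript length 0.489. In CDK2i these correlations were 0.034 and 0.094. The points share libraries and are genes, not replicates. In EZH2i the median difference was 0.69 among genes of 30 to 40% GC and −0.31 among genes of 60 to 70% GC. EREG, at 36.1% GC, was the most AT-rich member, and ERBB2, at 60.4%, the most GC-rich. EGFR, at 47.8%, has a long transcript of 9905 bases. TGFA was at 44.5% and HBEGF at 50.6%.

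A polynomial in GC content and log length, fitted over the expressed genes and chosen after seeing the data, gave a trend of 0.77 for EREG in EZH2i, 0.63 for EGFR, 0.53 for TGFA and 0.12 for HBEGF. After its removal HBEGF was at 1.60 and TGFA at 1.27, still past the fold threshold. EREG was at 0.86 and EGFR at 0.42, which no longer passed. ERBB2 stayed at −0.47. In CDK2i the trend values of all 9 members lay between −0.27 and −0.07, and HBEGF was at 2.95 and TGFA at 1.34 after removal. HBEGF and TGFA thus passed in both treated libraries with and without this step, and EGFR and EREG passed in EZH2i only without it. Whether the trend came from the libraries or from the tumors cannot be told apart here.

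**Figure D3:**
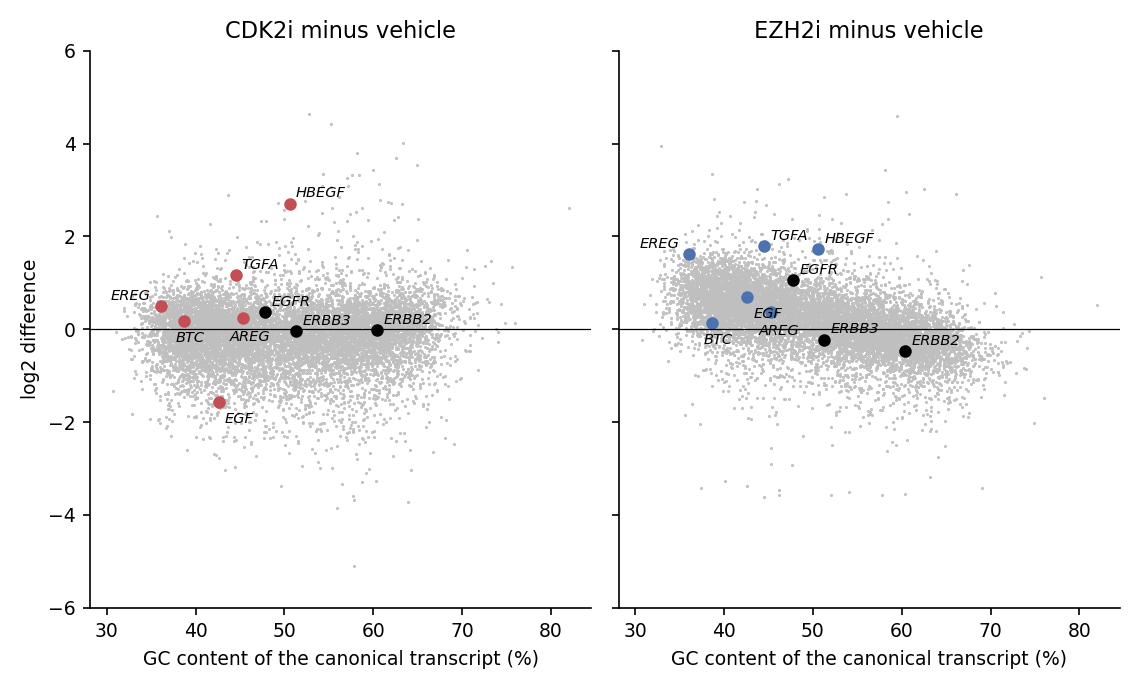
Log2 difference from vehicle against the GC content of the canonical transcript, for CDK2i (left) and EZH2i (right). Gray points are 10193 expressed genes, black points the 3 receptors and colored points the 6 ligands. In EZH2i the gray cloud slopes down with GC and EREG lies near its upper edge at 36.1% GC, whereas HBEGF at 50.6% GC lies above most gray points in both panels.

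In the direct comparison of the inhibitors, HBEGF was lower in EZH2i than in CDK2i by a log2 difference of −0.99 (−1.08 to −0.89), just short of the fold threshold. After removal of the GC and length trend this was −1.35, which passed. EREG was higher in EZH2i by 1.13 (1.06 to 1.20) and was the 1 member that passed, beside 24.1% of 7394 genes that passed, 17.5% higher and 6.52% lower. For EREG the difference left after trend removal was 0.27. With each library centered, EREG differed by 0.75 and did not pass, and HBEGF differed by −1.37 and did. EGFR differed by 0.68 and TGFA by 0.63, and after trend removal by −0.02 and −0.07. In the deposited levels HBEGF was thus the higher ligand in CDK2i and EREG in EZH2i, and with the trend removed the HBEGF difference was larger and the EREG difference smaller.

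EPGN, EREG, AREG, AREGB and BTC lie within 545.5 kb of chromosome 4, from the EPGN start at 75174187 to the BTC end at 75719733. EPGN encodes epigen, a further EGFR ligand. Its level was 0.947 FPKM in vehicle, 0.612 with CDK2i and 3.91 with EZH2i, from about 43, 31 and 184 fragments, and it stayed below the minimum. The EPGN log2 difference in EZH2i was 2.05 (1.55 to 2.55), and 1.52 after trend removal. EREG had an EZH2i difference of 1.62, and 0.86 after trend removal. AREG and AREGB, whose separate levels are uncertain, had a difference of 0.55 as a sum, and BTC had 0.14. The neighbor on the EPGN side, MTHFD2L, differed by 1.26 and passed, but not after trend removal, at 0.74. PARM1, beyond BTC, differed by −1.68 and stayed below the minimum. In CDK2i the genes from EPGN to BTC ranged from −0.63 to 0.49.

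**Figure D4:**
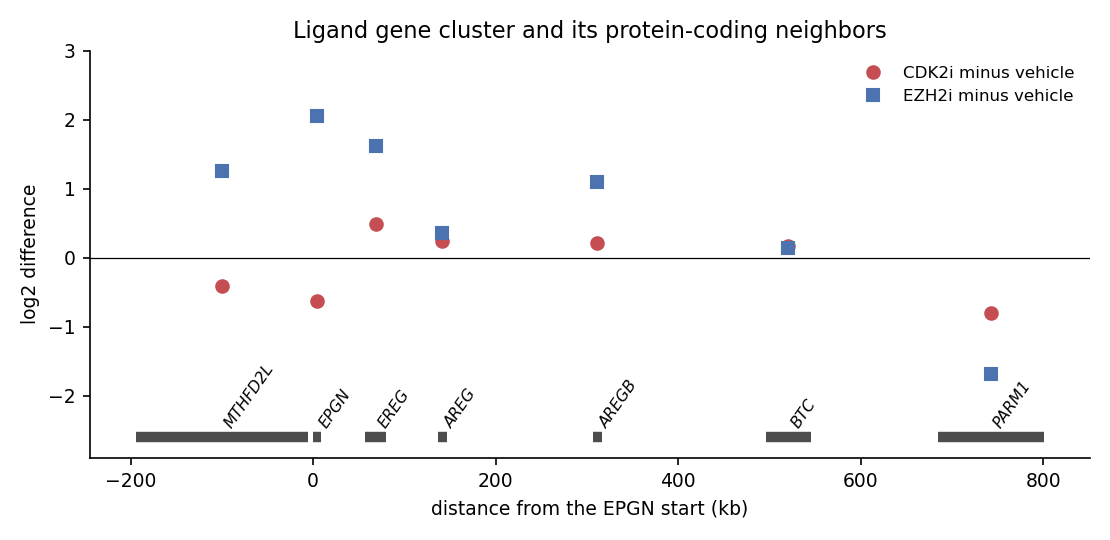
Log2 difference from vehicle of the chromosome 4 ligand genes and the protein-coding gene on either side, against distance from the EPGN start in kb, with circles for CDK2i, squares for EZH2i and bars for the gene spans. EPGN, at 2.05, EREG, at 1.62, the neighbor MTHFD2L, at 1.26, and AREGB, at 1.10, lie above 1 in EZH2i. BTC lies near 0 and PARM1 below 0 in both libraries. The separate points of AREG and AREGB are uncertain since reads may be split between them.

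The rest of the family was weakly expressed. ERBB4, the remaining receptor, rested on about 4 fragments in vehicle, 1 in CDK2i and 5 in EZH2i. NRG1, a neuregulin that binds ERBB3 and ERBB4, was at 2.71 FPKM in vehicle, 4.89 with CDK2i and 3.52 with EZH2i. NRG4 was at 1.54, 0.844 and 2.40 FPKM. NRG2 was at 0.112 FPKM in vehicle and in CDK2i and was listed at 0 in EZH2i. None of the 5 other family genes in the table reached the expression minimum.

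The 14 genes of ligand release covered sheddases, their helpers and the metalloprotease inhibitors TIMP1, TIMP2 and TIMP3, which act against shedding. This list and those that follow were written with earlier results of these data known. In CDK2i 9 reached the minimum and 1 was higher, beside 3.27% of all genes. In EZH2i 10 reached it and 4 were higher, beside 8.93%, and none was lower in either. ADAM17, the main sheddase of TGFA, AREG, EREG and HBEGF, was at 10.4 FPKM in vehicle, 16.1 with CDK2i and 23.5 with EZH2i. The ADAM17 difference in EZH2i was 1.18, and 0.55 after trend removal. ADAM19 passed in both libraries, with differences of 2.03 and 2.92. ADAM8 and ADAM9 passed in EZH2i with 1.04 and 1.19, and were at 1.26 and 0.50 after trend removal. The median over the 14 genes, inhibitors included, was 0.59 in CDK2i and 0.43 in EZH2i.

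Of 13 receptor inhibitors, 6 reached the minimum in CDK2i and 1 was lower, beside 8.07% of all genes. In EZH2i 8 reached it and 3 were higher, beside 8.93%. LRIG3, a transmembrane protein placed in this list with its relatives LRIG1 and LRIG2, was lower in CDK2i, with a difference of −1.82. Its own effect on ERBB receptors was not tested. ERRFI1, a feedback inhibitor of the EGFR kinase, was higher in EZH2i by 1.17, SOCS4 by 1.20 and the phosphatase PTPN12 by 1.41. After trend removal these 3 values were 0.70, 0.31 and 0.84. The median over the 13 genes was 0.03 in CDK2i and 0.66 in EZH2i, the latter 0.17 with the trend removed. Of 35 adaptors and kinases downstream of the receptors, 22 reached the minimum in CDK2i and 1 was lower, beside 8.07% of all genes. It was the adaptor NCK1, with a difference of −1.53. In EZH2i 23 reached the minimum and 3 were higher, beside 8.93% of all genes. Those higher in EZH2i included the RAS exchange factor SOS2 and the phosphatase PTPN11, by 1.35 and 1.18, which were at 0.62 and 0.46 after trend removal. The median over the 35 genes was 0.28 in CDK2i and 0.45 in EZH2i, the latter 0.20 with the trend removed.

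Of 16 genes that ERK signaling is known to induce, 9 reached the minimum in CDK2i and 7 were higher, beside 3.27% of all genes, namely EGR1, FOS, FOSL1, JUNB, DUSP5, DUSP6 and IER3. In EZH2i 11 reached it and 4 were higher, FOSL1, SPRED1, SPRED2 and PHLDA1, beside 8.93%, and EGR1 was lower, beside 4.42%. SPRED1, SPRED2 and PHLDA1, at 3.2, 3.69 and 4.69 FPKM in vehicle, reached the minimum only in the EZH2i library. DUSP5, at 3.05 FPKM in vehicle, reached it only in CDK2i. With the trend removed SPRED1 was at 0.70 and PHLDA1 at 0.90 and did not pass, and IER3 passed at 1.37. FOSL1, an AP-1 subunit, was the 1 gene of this list that passed as higher in both, with differences of 1.27 and 1.44. DUSP6, the ERK phosphatase, differed by 1.24 in CDK2i and 0.82 in EZH2i. The list medians were 0.38 and 1.04, the latter 0.89 with the trend removed. Among 16 immediate early genes, some of which are also in the ERK list, 14 reached the minimum in CDK2i and 12 were higher, beside 3.27%. The summed level of the 16 was 400.3 FPKM in vehicle, 3470 with CDK2i and 338.5 with EZH2i. FOS differed by 4.64 in CDK2i and 0.87 in EZH2i, and JUNB by 3.55 and −0.48. EGR1 differed by 2.60 and −1.29 and was the 1 immediate early gene that passed in EZH2i. HBEGF was highest in this same CDK2i library, and the part of the immediate early genes in the HBEGF value was not tested.

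**Figure D5:**
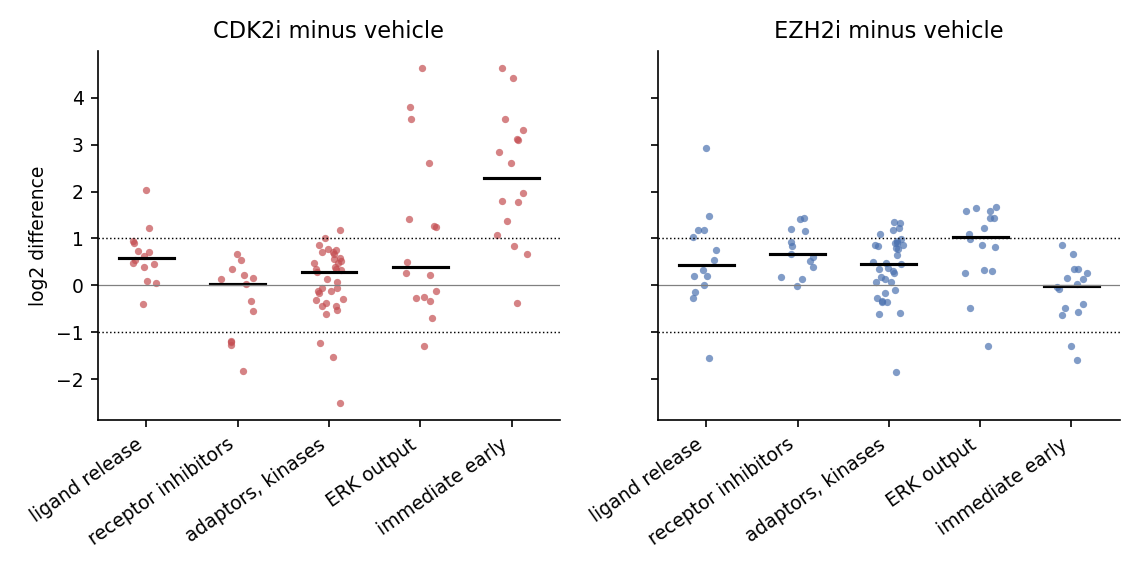
Log2 differences from vehicle in CDK2i (left) and EZH2i (right) for the ligand release, receptor inhibitor, adaptor and kinase, ERK output and immediate early lists. Each gene of a list is 1 point, list medians are black bars and dotted lines mark a fold of 2. EGR1, FOS and JUNB are in both the ERK output and the immediate early list. In CDK2i the immediate early genes lie highest, with a median of 2.28, and in EZH2i their median is near 0 while that of the ERK output list is 1.04.

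For each member that passed, the nearest genes by their 2 log2 differences from vehicle were looked up among 7572 genes. Closest to HBEGF were CTD-2622I13.3, the cornified envelope gene SPRR2D and IL1R2, a decoy receptor for interleukin-1, which differed by 2.66, 2.77 and 2.57 in CDK2i and by 1.64, 1.5 and 1.49 in EZH2i. Those close to TGFA included ITGB8, an integrin subunit, and FERMT1, an integrin-binding adaptor. ITGB8 differed by 1.21 and 1.66. Closest to EREG were FAR1, GRHL3 and PHLDA1, and closest to EGFR were CKAP5, NUP98 and MAN1A2. The EGFR neighbors were within 0.018 of it, the HBEGF neighbors between 0.095 and 0.267. With 3 libraries this likeness rests on 2 values a gene.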

How the data were processed

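Total RNA from 3 SUM-149 xenograft tumor libraries (vehicle, CDK2i, EZH2i) was sequenced by the study. The deposited values were log2 FPKM per gene, made by the authors from reads aligned to hg19. The submitters' processing notes name CASAVA and STAR, and the study names GRCh37/hg19 for genome and annotation. The annotation release, counting tool and gene lengths are not given in the sources used here. A value of −9 stands for an FPKM of 0.

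Groups were taken from the sample labels. Differences of the deposited log2 FPKM were computed without a pseudocount (Python 3.11.15, numpy 2.4.6, pandas 2.3.3, scipy 1.17.1). With 1 library a group no test was run. The study's fold and expression limits were applied, but its p-value could not be. FPKM sums over all genes were 478777 in vehicle, 431781 in CDK2i and 405028 in EZH2i.

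Depth was the number of fragments that put the most low values within 0.01 of a whole fragment, which held for 37.6 to 39.9% of low genes. Fragments per member were then approximated with the length of the canonical transcript of GENCODE 44 on GRCh37. A longer gene model would give more fragments and narrower intervals. Intervals were exact Poisson for levels and exact binomial (Clopper-Pearson) for differences. Symbols matched the annotation for 20300 genes, 68.4% of the table and 92.5% of the expressed genes, meaning genes that averaged over log2 FPKM 1 and were never at −9. The GC and length trend was a polynomial of degree 3 in each, fitted without ribosomal protein genes. Thresholding, trend removal and depth recovery were tested on simulated data. The protein sequences were not used here.

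Genes named in the text were the members, the other family genes, pathway list genes past both thresholds against vehicle, the 3 nearest patterns of each member that passed, and the genes beside the chromosome 4 ligands. ADAM17, DUSP6 and the other examples came from these, and a few genes that the rule names are not reported here. PTPRC, THY1, COL1A1, ENG, LUM, CD14, CLDN4 and the keratins belong to the marker lists. The members and lists were chosen with earlier results of these data known.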

Additional observations from a re-analysis of the deposited data

How the results depend on the processing

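No paired analysis was possible because each group held 1 library. No library could be left out for the same reason, and few fragments lay behind EGF, with 7 to 29, and ERBB4, with 1 to 5. HBEGF and TGFA passed in both treated libraries under every scaling, pseudocount and trend setting tried. Over these settings the CDK2i difference ran from 2.56 to 2.95 for HBEGF and from 1.02 to 1.34 for TGFA, and the EZH2i difference from 1.5 to 1.96 and from 1.27 to 2.04. EGFR in EZH2i ran from 0.42 to 1.29 and did not pass with each library centered on its median gene (0.84) or with the trend removed. EREG in EZH2i ran from 0.86 to 1.86. In CDK2i ERBB2 ran from −0.16 to 0.16 and ERBB3 from −0.18 to 0.13, so their sign depends on the scaling, as does that of ERBB3 in EZH2i (−0.61 to 0.02). No member that passed changed sign.

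The number of members that passed in CDK2i was 1 with a fold above 3 and 1 with a minimum of log2 FPKM 5, HBEGF in each case. With that fold 250 of the 6632 genes at the main minimum passed, and with that minimum 196 of all genes passed. In EZH2i the number of members was 2 with a minimum of log2 FPKM 5, EGFR and EREG, and 2 with the trend removed, HBEGF and TGFA. Of all genes, 262 passed with that minimum and 375 annotated genes with the trend removed. HBEGF, at log2 FPKM 4.99 in EZH2i, and TGFA, at 4.42, did not reach a minimum of log2 FPKM 5 there. Between the inhibitors the number of members was 4 with a fold above 1.5, beside 3530 of the 7394 genes at the minimum. It was 0 with a fold above 3, beside 599 of those genes, and 2 with no minimum, beside 14245 of all 29689 genes. With each library centered, or with the trend removed, the number of members was 1 as before, but the member was HBEGF, lower in EZH2i, in place of EREG.

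Of all genes, 752 passed in CDK2i, 990 in EZH2i and 1779 between the inhibitors. With a fold above 1.5 these numbers were 1947, 2710 and 3530, and with a fold above 3 they were 250, 186 and 599. With no minimum they were 11703, 10795 and 14245, with a minimum of log2 FPKM 1 they were 2037, 2231 and 4032, and with a minimum of log2 FPKM 5 they were 196, 262 and 403. Summed FPKM made equal gave 1621 in EZH2i. With the trend removed 375 passed in EZH2i and 1026 between the inhibitors, whereas 915 and 1656 of these annotated genes had passed as deposited. The share of genes that were higher among those that passed was 28.9% in CDK2i and 66.9% in EZH2i as deposited, 48.7% and 35.5% with each library centered, 46.1% and 88.9% with summed FPKM made equal, 17.6% and 71.3% with that sum taken without ribosomal protein and mitochondrially encoded genes, and 47.2% and 41.6% with the trend removed. Between the inhibitors it was 72.9% as deposited, 32.8% centered, 83.9% with the latter sum and 49.3% with the trend removed.

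The receptor median in CDK2i was 0.16 centered, 0.14 with equal sums, −0.16 with the sum without ribosomal and mitochondrial genes and 0.11 with the trend removed. In EZH2i it was −0.44, 0.02 and −0.47 for centering, equal sums and trend removal, and between the inhibitors it was −0.57 centered, 0.00 with the sum without ribosomal and mitochondrial genes and −0.53 with the trend removed. The ligand median in EZH2i was 0.57 with the trend removed. Between the inhibitors it was −0.01 centered, 0.56 with the sum without ribosomal and mitochondrial genes, 0.19 with a pseudocount of 1 and −0.15 with the trend removed. The cause of these shifts was not tested.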
